A study of Mus musculus with 6 samples.

Results

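The genes described here encode the chains of the receptors for interferons, interleukin-10 (IL-10) and IL-12. Their members were chosen by symbol and are *Ifngr1*, *Ifngr2*, *Ifnar1*, *Ifnar2*, *Il10ra*, *Il10rb*, *Il12rb1* and *Il12rb2*. All 8 were found among the 26264 genes of the normalized counts table. Each of these receptors is built from a pair of different chains that carry Janus kinases on their cytoplasmic tails, and ligand binding lets the kinases activate STAT transcription factors. Interferon-γ (IFN-γ) signals through IFNGR1 and IFNGR2, type I interferons through IFNAR1 and IFNAR2, IL-10 through IL10RA and IL10RB, and IL-12 through IL12RB1 and IL12RB2. Interferons are known to act directly on hematopoietic stem cells (HSCs), whereas IL-12 receptors are best known from T and natural killer (NK) cells and IL-10 receptors from mature immune cells.

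HSCs, defined as Lineage-Sca1+cKit+ (LSK) cells positive for CD150 and negative for CD48, were sorted from the bone marrow of untreated 8-week-old female mice. The mice were either wild-type C57Bl/6 (WT) or lacked *Irf1* in the whole body (*Irf1-/-*, strain B6.129S2-Irf1 tm1Mak/J), so that blood cells and their surroundings both lacked the gene. Bulk RNA-seq gave 3 libraries per genotype, each from a different mouse and named here by replicate numbers 2, 3 and 4. The comparison asks how loss of the interferon-induced transcription factor IRF1 alters transcript levels in HSCs, here those of cytokine receptor chains.

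Reads on genes numbered 43138521, 57281017 and 45129929 in *Irf1-/-* replicates 2, 3 and 4, and 59658080, 45332573 and 43267486 in the WT replicates of the same numbers. Values below are normalized counts, that is, reads divided by a size factor per library. They compare libraries for 1 gene but not genes of different length. The fewest reads behind any value of a receptor chain were 140, for *Il10ra* in WT replicate 3. The amplified libraries carry no molecular identifiers, so reads are not independent molecules.

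*Irf1* itself was counted at 9267, 9524 and 9287 in *Irf1-/-* replicates 2, 3 and 4, and at 10122, 11120 and 12058 in the WT replicates. All *Irf1-/-* libraries lay below all WT libraries, but *Irf1* did not pass the test (log2 fold change −0.24, SE 0.09, limma adjusted *P* = 0.170). The table counts reads over the whole gene, so reads from parts of the locus that the targeted allele retains cannot be told apart from intact transcripts, and the genotype rests on the labels. The HSC identity of the libraries was checked with 12 markers, which were all detected, with *Kit* the most abundant at a mean of 82379 normalized counts over the libraries. WT replicate 4 stood apart in transcripts of neutrophil granules. In that library *S100a8* was at 1033, *S100a9* at 1246, *Ltf* at 2032, *Ngp* at 2535 and *Camp* at 666, whereas no other library exceeded 131 for any of them. WT replicate 3 stood apart for the monocyte marker *Ly6c2*, at 808 against 181 or fewer elsewhere. Results for the called receptor chains are therefore also given without these libraries.

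Loss of *Irf1* went with a higher level of the ligand-binding IL-10 receptor chain and a lower level of an IL-12 receptor chain. *Il10ra* was 2.95-fold higher and *Il12rb1* 5.12-fold lower in *Irf1-/-* HSCs by group means, and their partner chains *Il10rb* and *Il12rb2* did not pass the test. None of the 4 interferon receptor chains passed it, although *Ifngr1*, *Ifngr2* and *Ifnar1* were at somewhat higher values in every *Irf1-/-* library.

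A gene was called when limma's Benjamini-Hochberg adjusted *P* was under 0.05 and the log2 fold change, taken on normalized counts plus 1, exceeded 0.58 in size. All 8 chains passed the filter on low values and were among the 17404 tested genes. The test called 2 of the 8 chains, compared with 1.91% of all tested genes (333 genes). *Il10ra* was the only chain called higher (167 genes, 0.96%) and *Il12rb1* the only chain called lower (166 genes, 0.954%). The same 2 chains had an adjusted *P* under 0.05 whatever the fold change, as did 3.22% of all tested genes. The genotypes did not overlap for 6 chains, against 19.9% of all tested genes, with 5 chains above WT in every *Irf1-/-* library (10.6% of all) and 1 below (9.27% of all). Before adjustment, 6 chains had *P* under 0.05, as did 16.5% of tested genes. The median log2 fold change was 0.26 over the 8 chains and −0.0028 over all tested genes. When the prior variance of limma had no intensity trend, none of the chains was called, and the genes called over the whole table numbered 7 higher and 33 lower. Counts over the whole table also depended on single libraries. The genes called higher numbered 104 without *Irf1-/-* replicate 2, 83 without *Irf1-/-* replicate 4, 102 without WT replicate 3 and 304 without WT replicate 4, and the genes called lower 105 without WT replicate 3 and 265 without WT replicate 4.

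The IFN-γ receptor consists of the ligand-binding chain IFNGR1 and the signaling chain IFNGR2. *Ifngr1* was at 8514, 9046 and 8173 normalized counts in WT replicates 2, 3 and 4 and at 10164, 10574 and 10197 in the *Irf1-/-* replicates. *Ifngr2* was at 1221, 957 and 1164 in WT and at 1483, 1441 and 1309 in *Irf1-/-*. For both chains the lowest *Irf1-/-* library lay above the highest WT library. The log2 fold change of *Ifngr1* was 0.27 (95% confidence interval 0.09 to 0.44) with a limma adjusted *P* of 0.104. That of *Ifngr2* was 0.35 (0.08 to 0.62) with a limma adjusted *P* of 0.172. Neither chain was called, and the upper bound for *Ifngr1* lies below the threshold of 0.58 while that for *Ifngr2* lies slightly above it.

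The type I interferon receptor consists of IFNAR1, which carries TYK2, and IFNAR2, which binds the ligand with higher affinity and carries JAK1. *Ifnar1* was at 6671, 6216 and 6349 in WT replicates 2, 3 and 4 and at 7728, 7403 and 7722 in *Irf1-/-*. *Ifnar2* was at 6053, 6449.5 and 5884 in WT and at 6109, 6259 and 5966 in *Irf1-/-*. *Ifnar1* was thus higher in every *Irf1-/-* library than in any WT library, whereas the *Ifnar2* values of the genotypes were interleaved. The log2 fold change of *Ifnar1* was 0.25 (95% interval 0.07 to 0.42, limma adjusted *P* = 0.126). For *Ifnar2* it was −0.0032 (−0.18 to 0.18, limma adjusted *P* = 0.992), an interval that holds no change as large as the threshold in either direction. DESeq2 on the reads recovered from the normalized counts put the adjusted *P* of 2 uncalled chains under 0.05, *Ifngr1* at 0.0293 and *Ifnar1* at 0.0455, with log2 fold changes of 0.27 and 0.25 that stay under the fold change threshold.

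IL10RA binds IL-10 and is specific to its receptor, whereas IL10RB is an accessory chain shared with the receptors for IL-22 and interferon-λ. *Il10ra* was at 290, 158 and 179 normalized counts in WT replicates 2, 3 and 4, and at 677, 624 and 548 in the *Irf1-/-* replicates. Every *Irf1-/-* library was above every WT library, and the means were 209 ± 71.4 in WT and 616 ± 64.7 in *Irf1-/-* (SD, n = 3 each). *Il10ra* was called higher with a log2 fold change of 1.60 (SE 0.23, 95% interval 1.11 to 2.09, limma adjusted *P* = 0.00155). Bulk samples cannot tell a change in the share of cells of a type from a change in RNA per cell. This limit holds for every chain here. The call held when any of the 6 libraries was left out, with log2 fold changes between 1.43 and 1.86, but not without the intensity trend in limma (adjusted *P* = 0.125). *Il10rb* was at 3162, 3359 and 3041 in WT and at 3718, 3877 and 3899 in *Irf1-/-*. It too was above WT in every *Irf1-/-* library, but its log2 fold change of 0.27 (0.08 to 0.46) was not called (limma adjusted *P* = 0.134).

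IL12RB1 is shared by the receptors for IL-12 and IL-23, and IL12RB2 is the chain that recruits STAT4 in response to IL-12. *Il12rb1* was at 1389, 1084 and 1376 normalized counts in WT replicates 2, 3 and 4, and at 262, 162 and 328 in the *Irf1-/-* replicates. The highest *Irf1-/-* library was thus far below the lowest WT library, and the mean of 251 ± 83.8 in *Irf1-/-* was 19.5% of the WT mean of 1283 ± 172 (SD, n = 3 each). *Il12rb1* was called lower with a log2 fold change of −2.40 (SE 0.22, 95% interval −2.88 to −1.92, limma adjusted *P* = 2.94e-05). Leaving out each library in turn gave log2 fold changes between −2.62 and −2.12 and kept the call, which was lost without the intensity trend in limma (adjusted *P* = 0.0679). *Il12rb2* was at 754, 982 and 821 in WT and at 729, 855 and 754 in *Irf1-/-*. The genotypes overlapped for this chain, and its log2 fold change of −0.12 (−0.43 to 0.18) was not called (limma adjusted *P* = 0.758).

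Without WT replicate 4, the library with neutrophil transcripts, *Il10ra* had a log2 fold change of 1.52 and *Il12rb1* one of −2.35. Without WT replicate 3 these were 1.43 and −2.52, and both chains were called in either case. For each of the 6 chains whose genotypes did not overlap, the exact permutation test (two-sided) returned *P* = 0.1, and 3 libraries against 3 allow no smaller value. Libraries of a genotype varied most for the called chains at their lower level. The SD was 34.2% of the mean for *Il10ra* in WT and 33.4% for *Il12rb1* in *Irf1-/-*, whereas it was 13.7% or less for the other 6 chains in either genotype.

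Because a receptor needs both of its chains, the log2 ratio of their normalized counts was taken within each library. Gene length cancels when such a ratio is compared between genotypes, but not in the ratio itself. For *Il10ra* to *Il10rb*, the log2 ratio was −3.44, −4.40 and −4.08 in WT replicates 2, 3 and 4 and −2.46, −2.63 and −2.83 in *Irf1-/-*. There were thus 6.59 ± 2.33 counts of *Il10ra* per 100 counts of *Il10rb* in WT and 16.1 ± 2.07 in *Irf1-/-* (SD, n = 3 each), with no overlap. For *Il12rb1* to *Il12rb2* the log2 ratio was 0.88, 0.14 and 0.74 in WT and −1.47, −2.40 and −1.20 in *Irf1-/-*. Counts of *Il12rb1* exceeded those of *Il12rb2* in every WT library and were below them in every *Irf1-/-* library, at 154 ± 38.7 and 32.8 ± 12.6 per 100 counts of *Il12rb2* (SD, n = 3 each). The ratio of *Ifnar1* to *Ifnar2* was 0.14, −0.05 and 0.11 in WT and 0.34, 0.24 and 0.37 in *Irf1-/-* on the log2 scale, again without overlap. Only the ratio of *Ifngr1* to *Ifngr2* overlapped, at 2.80, 3.24 and 2.81 in WT and 2.78, 2.87 and 2.96 in *Irf1-/-*. The differences between genotypes, *Irf1-/-* minus WT, were 1.34 for the IL-10 receptor pair, −2.28 for the IL-12 receptor pair, 0.25 for the type I interferon receptor pair and −0.08 for the IFN-γ receptor pair. Exact two-sided permutation tests gave *P* = 0.1 for the first 3 pairs, the smallest value possible, and *P* = 0.8 for the last, or 0.133 and 0.8 after adjustment over the 4 pairs. The difference for the IFN-γ receptor pair turned to 0.06 when WT replicate 3 was left out.

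To compare levels between genes, normalized counts were divided by the length in kilobases of the longest protein-coding transcript of each gene. On this scale the WT means were 4061 for *Ifngr1*, 2011 for *Ifnar2*, 1640.4 for *Ifnar1*, 1142 for *Il10rb*, 447 for *Il12rb1*, 342 for *Ifngr2*, 284 for *Il12rb2* and 59.8 for *Il10ra*. In WT HSCs the neighbors *Ifngr2* and *Il12rb2* overlapped between libraries (294 to 375 and 251 to 327 per kilobase), whereas the other neighbors in this order did not. In *Irf1-/-* HSCs *Il12rb1* was the least abundant chain at 87.2 ± 29.2 normalized counts per kilobase, below *Il10ra* at 176 ± 18.5 (SD, n = 3 each), and the libraries of these chains did not overlap. Levels per kilobase of *Ifnar1* (1894 to 1977) and *Ifnar2* (1958 to 2054) overlapped in *Irf1-/-* but not in WT. The place of *Il10rb* rests on the transcript used. With the transcript that has the longest coding part, a choice made after seeing the data, its WT mean was 1728 per kilobase, above that of *Ifnar1*, and its *Irf1-/-* mean was 2077, above that of *Ifnar2* at 2006. The libraries of these chains overlapped in both cases (1648 to 1821 and 1590 to 1707 in WT, 2015 to 2113 and 1958 to 2054 in *Irf1-/-*), and the lengths of the other chains did not change.

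In the mouse genome, 4 of the 8 genes lie side by side on chromosome 16, in the order *Ifnar2*, *Il10rb*, *Ifnar1* and *Ifngr2* (gene order of RefSeq, assembly GRCm38.p6). The log2 fold changes along this cluster were −0.0032, 0.27, 0.25 and 0.35, none of them called. The next protein-coding genes outward are *Olig1*, which was at 10.8 normalized counts or fewer in every library and was not tested, and *Tmem50b*, with a log2 fold change of −0.02. These neighbors were chosen after their values were seen. The other chains lie apart, *Ifngr1* on chromosome 10, *Il10ra* on 9, *Il12rb1* on 8 and *Il12rb2* on 6, and none shares chromosome 11 with *Irf1*. The genes on either side of *Il12rb1* are *Mast3* and *Arrdc2*, with log2 fold changes of 0.16 and −0.02 that were not called. Those on either side of *Il10ra* are *BC049352* and *Tmprss13*, which did not exceed 65.0 and 58.1 normalized counts and were not called, with log2 fold changes of 0.95 (95% interval −0.43 to 2.32) and 0.10. *Il12rb2* overlaps *Serbp1*, counted at 13565 to 18672, and *Ifnar2* and *Il10ra* each overlap a noncoding gene. No source used here says whether strand was used in counting, so the values of these 3 chains are less certain than the rest.

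Interferon-responsive genes are known to carry short DNA elements near their starts, so the 250 bases before the start of each gene were searched on both strands for the core of the interferon-stimulated response element (GAAANNGAAA) and for the gamma-activated sequence (GAS, TTCNNNGAA). The RefSeq promoter table held 5 of the 8 chains, which were *Ifngr1*, *Ifngr2*, *Ifnar1*, *Ifnar2* and *Il12rb2*, and had no entry for *Il10ra*, *Il10rb* and *Il12rb1*. The response element core was in 0 of the 5 windows and in 2.98% of 32851 promoter windows of the same length. GAS was in 2 of the 5 windows and in 7.02% of all windows. The matches, in *Ifnar2* and *Il12rb2*, are shown because they are the only ones among the chains searched. A match in letters is a description and not a binding site. Each stretch below is written 5′ to 3′ on the strand of its gene with up to 20 bases on either side of the match, which is in capitals (GRCm38.p6, chr16:91372549-91372597 on the plus strand for *Ifnar2* and chr6:67376283-67376331 on the minus strand for *Il12rb2*).
Ifnar2: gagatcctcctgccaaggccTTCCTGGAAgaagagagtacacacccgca
Il12rb2: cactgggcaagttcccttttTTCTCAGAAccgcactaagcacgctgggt

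Transcripts of the ligands were scarce, with an exception in the IL-12 family. Of 20 interferon genes, 16 were below 10 normalized counts in every library and 3 had no read, and 2 passed the filter for testing. *Ifng* was at 6.76 in WT replicate 3 and at 0 in the other libraries. Of the 6 IL-10 family genes, 2 were tested, and *Il10* was between 18.9 and 51.6 in WT and between 11.2 and 35.2 in *Irf1-/-*. In the IL-12 family, where subunits combine into IL-12, IL-23, IL-27 and IL-35, *Il12a* was between 1408 and 2434 and *Ebi3* between 1795 and 2650 normalized counts over the 6 libraries, whereas *Il12b* did not exceed 103. limma, edgeR and DESeq2 each called 0 ligand genes of the 3 lists, and limma called 1.91% of all tested genes. Among the tested ligands, unadjusted *P* in limma was under 0.05 for 0 of 2 interferon, 0 of 2 IL-10 family and 1 of 4 IL-12 family genes. The share over all tested genes was 16.5%.

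The chains that share ligands or partners with the receptors were also followed. IL27RA and gp130 (*Il6st*) form the IL-27 receptor, and IL-23R pairs with IL12RB1. *Il27ra* was between 4927 and 6371 normalized counts and *Il6st* between 3296 and 4981, while *Il23r* did not exceed 10.4 in any library. IFNLR1 and IL22RA1 pair with IL10RB, and *Ifnlr1* and *Il22ra1* did not exceed 52.7 and 55.9. Of 9 related receptor chains 7 were tested, and limma, edgeR and DESeq2 each called 0. The unadjusted limma *P* was under 0.05 for 1 of them, against 16.5% of all tested genes. The median log2 fold change of the tested chains was 0.11.

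Downstream of the receptors, the kinase genes *Jak1*, *Jak2* and *Tyk2* and the IL-12-responsive *Stat4* were not called, with log2 fold changes of 0.17, −0.01, 0.10 and 0.20. Among 13 inhibitors of this signaling, with a list median of −0.03, 1 was called, against 1.91% of all tested genes. *Socs3*, an inhibitor that IL-10 and related cytokines induce through STAT3, was at 694, 568 and 892 in WT and rose to 1562, 1724 and 1541 in *Irf1-/-* (log2 fold change 1.19, SE 0.15, limma adjusted *P* = 0.000737).

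Some known IL-10 targets were called higher alongside *Il10ra*. Of 9 listed genes 7 were tested, 3 were called higher, against 0.96% of all tested genes, and 0 lower, and the median log2 fold change of the tested genes was 0.44. Besides *Socs3*, these were *Bcl3*, an atypical inhibitor of NF-κB, and *Nfil3*, a bZIP repressor. *Bcl3* was at 1822, 1757 and 1610.5 in WT replicates 2, 3 and 4 and at 2484, 3419 and 3208 in *Irf1-/-*, a log2 fold change of 0.80 (SE 0.12, limma adjusted *P* = 0.00251). *Nfil3* was at 249, 237 and 235 in WT and at 448, 431 and 409 in *Irf1-/-*, a log2 fold change of 0.84 (SE 0.18, limma adjusted *P* = 0.0217). The libraries of the genotypes did not overlap for any of these 3 genes. The list was chosen with earlier results of these data known. In the paper, these 3 genes also belong to the TNF signaling set enriched among its up-regulated genes, so they are not particular to IL-10. Leaving out any library but WT replicate 4 put the limma adjusted *P* of *Nfil3* between 0.0531 and 0.0888, with the log2 fold change still between 0.81 and 0.87. A further 2 listed genes, *Sbno2* and *Il4ra*, had an adjusted *P* under 0.05 but log2 fold changes of 0.44 and 0.37, under the threshold. The other tested genes, *Etv3* and *Fcgr1*, overlapped between genotypes, with log2 fold changes of 0.19 (95% interval −0.03 to 0.40) and −0.60 (−1.70 to 0.50). Whether the values of these targets depend on the level of *Il10ra* was not tested.

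None of the tested IL-12 targets on the list was called lower alongside *Il12rb1*, but several listed genes were too scarce to show a fall. Of 8 listed genes 6 were tested, with a median log2 fold change of 0.16. Of these, 0 were called lower, against 0.954% of all tested genes, and 1 was called higher, against 0.96%. Their most abundant gene was *Furin*. *Prf1* and *Hlx* had lower values, with log2 fold changes of −0.94 (95% interval −2.69 to 0.80) and −0.19 (−0.70 to 0.33), and *Ifng* and *Tbx21* were too low to be tested. Over the libraries *Prf1* was at 4.26 to 32.3 normalized counts and *Gzmb* at 27.0 to 56.1, levels at which a fall is hard to call. *Il18r1* was higher in every *Irf1-/-* library (244, 261 and 287) than in any WT library (99.6, 93.5 and 202), but its log2 fold change of 1.09 was not called (limma adjusted *P* = 0.0682). The called gene was *Il18rap*, a chain of the IL-18 receptor, at 908, 633 and 999 in WT replicates 2, 3 and 4 and at 1889, 1360.1 and 1498 in *Irf1-/-* (log2 fold change 0.91, SE 0.17, limma adjusted *P* = 0.0103). Its call was lost without *Irf1-/-* replicate 2 (limma adjusted *P* = 0.0659). edgeR also called 1 gene of the list, and DESeq2 called *Il18rap* and *Il18r1*.

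Interferon targets were called only in the lower direction, while none of the interferon receptor chains was called. Of 24 IFN-γ targets 19 were called lower, against 0.954% of all tested genes, and 0 higher, with a median log2 fold change of −1.06 against −0.0028 over all tested genes. The largest falls were those of *Cd74*, *H2-Aa* and *H2-Eb1* of antigen presentation, the chemokine gene *Cxcl10* and the guanylate-binding protein gene *Gbp4*, with log2 fold changes of −5.45, −5.25, −5.11, −2.85 and −2.83. The call for *Cxcl10* was lost without *Irf1-/-* replicate 2 or 3 (limma adjusted *P* = 0.0713 and 0.0603). Of 19 type I interferon targets 5 were called lower, against the same 0.954%, and 0 higher, with a median of −0.24. These were *Ifit3*, *Oas3*, *Mx1*, *Ifi27* and *Ifit2*, with log2 fold changes of −1.89, −1.31, −1.24, −0.83 and −0.69. *Mx1* lost its call without any library but *Irf1-/-* replicate 3 (highest limma adjusted *P* 0.13), without the filter on low values (0.0562) and with a term for the split of the libraries on the first principal component (0.0518), an alternative chosen after seeing the data, and *Ifi27* without *Irf1-/-* replicate 2, *Irf1-/-* replicate 4 or WT replicate 2 (highest 0.0857), so that 3 targets of the list were called in each of those 3 fits. The IFN-γ target list contains *Irf1* itself, which was not called. Without the intensity trend in limma, 6 IFN-γ targets and 1 IL-10 target were called, and 0 genes of each other list given here.

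The genes whose values ran closest to those of the called chains were sought over all tested genes outside the 8, by Pearson correlation of log2 normalized counts over the 6 libraries, which fall into 2 genotypes. For *Il10ra* they were *Ly96*, which encodes the lipopolysaccharide co-receptor MD-2 (r = 0.998), *Gm2a*, which encodes the GM2 ganglioside activator (r = 0.996), and *Pbxip1* (r = 0.993). *Ly96* was at 259, 211 and 211 in WT replicates 2, 3 and 4 and at 357, 348 and 325 in *Irf1-/-*, and was not called by limma but was by DESeq2 (log2 fold change 0.59, adjusted *P* = 0.036). *Gm2a* and *Pbxip1* were each called higher with a log2 fold change of 0.58, so close to the threshold that the calls were lost without *Irf1-/-* replicate 3 (log2 fold changes 0.57 and 0.57) or WT replicate 3 (0.53 and 0.51), and for *Gm2a* also without WT replicate 4 (0.55). Both fell short of the threshold with median centring (0.55 and 0.55) and in DESeq2 (0.578 and 0.579), and *Gm2a* also in edgeR (0.5795). For *Il12rb1* they were *Raver2* (r = 0.993), *Pnldc1* (r = 0.993) and *Insl6* (r = 0.991). *Insl6*, which encodes an insulin-like peptide, was at 625, 539 and 684 in WT and at 169.5, 144 and 187 in *Irf1-/-*, a log2 fold change of −1.88 (SE 0.19, limma adjusted *P* = 8.63e-05). *Raver2* was called lower (log2 fold change −0.76) and *Pnldc1*, at 60.2 or fewer counts, was not called. Without the intensity trend in limma, the calls for *Gm2a*, *Pbxip1* and *Raver2* were lost (adjusted *P* = 0.164, 0.165 and 0.0679). The correlations are a description of 6 values and carry no test.

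Several markers of cells in which these receptors are best known were at low levels, whereas others were well detected. Of the T cell markers, *Cd3e*, *Cd3g* and *Cd8a* did not exceed 7.89, 12.4 and 2.59 normalized counts in any library, and the most abundant was *Lck*, at a mean of 959.7. *Cd4* was between 117 and 245 in WT and between 200 and 340 in *Irf1-/-*. Of the NK cell markers, *Gzma* had no read and *Klrd1* did not exceed 9.68, and *Nkg7* was the most abundant at 2714. *Klrb1c* was between 394 and 494 in WT and between 413 and 837 in *Irf1-/-*. Of the B cell markers, *Pax5* did not exceed 18.3 and *Cd79b* was the most abundant at 2799.8. No T, NK or B cell marker was called by limma, edgeR or DESeq2. The unadjusted limma *P* was under 0.05 for 1 of 6, 1 of 4 and 0 of 6 tested markers, against 16.5% of all tested genes. The T cell marker, *Cd247*, was higher in every *Irf1-/-* library (397 to 445) than in any WT library (174 to 388). Its log2 fold change was 0.70 (limma adjusted *P* = 0.168). The NK cell marker, *Nkg7*, was lower in every *Irf1-/-* library (2174 to 2622 against 2895 to 3209), with a log2 fold change of −0.34 (limma adjusted *P* = 0.0894). The T cell markers summed to 1521 ± 198 normalized counts in WT and 1717 ± 126 in *Irf1-/-*, the NK cell markers to 3545 ± 209 and 3013 ± 428, and the B cell markers to 2862 ± 199 and 3035 ± 120 (SD, n = 3 each).

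Summed myeloid markers overlapped between the genotypes, although the most abundant neutrophil marker did not. The neutrophil markers summed to 6849.9, 6038 and 12744 in WT replicates 2, 3 and 4 and to 8283, 9380.2 and 9259 in *Irf1-/-*. Their overlap rested on WT replicate 4 alone, the library with neutrophil granule transcripts. The sums of WT replicates 2 and 3 lay below that of every *Irf1-/-* library. Their most abundant gene, *Csf3r*, was at 6448, 5676 and 4915 in WT and at 7755, 8841 and 8329 in *Irf1-/-*, with a limma adjusted *P* of 0.0102 but a log2 fold change of 0.56, under the threshold. The monocyte and macrophage markers summed to 1139.7, 3358 and 2285 in WT and to 2540.4, 2026 and 2965 in *Irf1-/-*, with *Itgam* the most abundant. The dendritic cell markers summed to 453 ± 105 in WT and 386 ± 126 in *Irf1-/-* (SD, n = 3 each), with *Zbtb46* the most abundant. limma, edgeR and DESeq2 called 0 markers of these 3 lists, and *Csf3r* was the only one of 8 neutrophil, 8 monocyte and 7 dendritic cell markers with a limma *P* under 0.05, before or after adjustment. Over all tested genes, 16.5% had such a *P* before adjustment and 3.22% after it.

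Erythroid and megakaryocyte markers moved with the genotype. The erythroid markers summed to 10823, 13133 and 10198 in WT replicates 2, 3 and 4 and to 7947, 5386 and 6865 in *Irf1-/-*, with *Gata1* the most abundant. Of 6 tested, *Car1* and *Klf1* were called lower (log2 fold changes −3.51 and −0.72), against 0.954% of all tested genes. The globin genes *Hbb-bt* and *Hba-a1* were at 0 in every library. edgeR and DESeq2 did not call *Car1* (adjusted *P* = 0.0887 and 0.198), and limma did not without *Irf1-/-* replicate 3 or 4 (highest adjusted *P* 0.0681). The call for *Klf1* was lost when replicate 2 or 3 of either genotype was left out (highest limma adjusted *P* 0.117). The megakaryocyte markers summed to 60369, 73757 and 58411 in WT and to 52625, 34805 and 47425 in *Irf1-/-*, with *Itga2b* the most abundant. Of 7 tested, *Pf4*, *Gp1bb* and *Gp1ba* were called lower (log2 fold changes −1.11, −0.90 and −0.69), against the same 0.954%. The call for *Gp1ba* was lost without *Irf1-/-* replicate 2, *Irf1-/-* replicate 3 or WT replicate 3 (highest limma adjusted *P* 0.077). Of 12 HSC markers *Fgd5* was called higher (0.83), against 0.96% of all tested genes. *Procr* and *Ly6a* also had a limma adjusted *P* under 0.05 (0.0112 and 0.0245). Their log2 fold changes of 0.52 and −0.43 were under the threshold in size. *Procr* was above WT, and *Ly6a* below it, in every *Irf1-/-* library. Of 6 markers of other LSK progenitors, with *Cd34* the most abundant, *Flt3* was called higher (0.67), against the same 0.96%. The call for *Flt3* was lost without any library but WT replicates 2 and 4 (highest limma adjusted *P* 0.127). It was also lost with the term for the split on the first principal component (0.0736). The part of these marker differences in the values of *Il10ra* and *Il12rb1* was not tested.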

How the data were processed

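The authors used Trim Galore for trimming and HISAT2 for alignment (the submitters' processing notes name mm39), counted reads with HTSeq-count and deposited a signal per gene, that is, counts divided by a DESeq2 size factor per library. Gene annotation and strand setting are not given in the sources used here. Dividing each library by its smallest step gave whole reads for 100% of values (tolerance 1e-06). No library was a copy of another of its genotype (chi-square per gene at least 16.0).

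Groups came from the labels. The genotypes were compared on log2(normalized count + 1) with limma 3.58.1 in R 4.3.3 (eBayes with an intensity trend), over genes with a mean of at least 10, with Benjamini-Hochberg adjustment over all 17404 tested genes. edgeR 4.0.16 and DESeq2 1.42.0 were run on recovered reads as alternatives, beside other pseudocounts, filters, scalings, a replicate block and each library left out. edgeR called 165 genes higher and 162 lower, and DESeq2 295 and 209. The fits and the permutation test were tested on simulated data.

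The members and gene lists were chosen with earlier results of these data known. Named are the 8 chains, *Irf1*, the called genes of the fixed pathway and marker lists (the 5 largest changes where more were called), the most abundant gene of each marker list and, per called chain, the 3 tested genes with the highest correlation. Other genes were named after their values were seen, and a gene covered by the rule is not reported here. Transcript lengths came from GENCODE vM1 and were matched by symbol for 8 of 8 chains. Figures were drawn with matplotlib.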

Additional observations from a re-analysis of the deposited data

How the results depend on the processing

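The calls of *Il10ra* and *Il12rb1* kept their direction under all 17 alternatives to the fit and were lost under 1, limma without an intensity trend, where 0 chains, 7 higher genes and 33 lower genes were called. The other 6 chains were called under none of them. *Ifngr1*, *Ifnar1* and *Il10rb* had an adjusted *P* under 0.05 in 4, 1 and 1 alternatives, always with a log2 fold change under 0.58. *Ifnar2*, at −0.0032, took the other sign with quantile normalization (0.033) and with a term for the split of the libraries on the first principal component (0.020), an alternative chosen after seeing the data, and ranged from −0.032 to 0.034 as each library was left out. The log2 ratio difference of *Ifngr1* to *Ifngr2* ranged from −0.15 to 0.065 in the same way. The causes were not tested. Over the whole table, 295 genes were called higher with DESeq2, 301 higher and 260 lower without a fold change threshold, and 83 to 304 higher and 105 to 265 lower with a library left out. Whether the replicate numbers pair the libraries is not known. Correlations of deviations were −0.09, 0.25 and 0.15 for numbers 2, 3 and 4, and not every library correlated best with its own number. *Irf1-/-* replicates 3 and 4 did, and 3 libraries per genotype are too few to settle it. With the replicate block, 2 chains, 219 higher and 196 lower genes were called. The other called genes named in the report changed direction under none of the alternatives, and most of the uncalled genes named there were not run under them. With 3 mice per genotype, the 95% intervals for the interferon receptor chains allow log2 fold changes up to 0.62.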
